A study of Mus musculus with 6 samples.

Results

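The genes of glucose transport, glycolysis, pyruvate entry into the mitochondrion and the pentose phosphate pathway were followed in immortalized murine podocytes with and without Col4a3. These 42 genes were taken by name from the 57132 genes of the count table, after the identifiers were given GENCODE M21 symbols. Of the 42 genes, 40 had enough counts to be tested. In AS podocytes the transporter Slc2a1, hexokinase Hk2, Gapdh and the pyruvate dehydrogenase kinase Pdk2 were lower than in WT podocytes, whereas all the phosphofructokinase genes and Pdk1 were higher. The genes Pkm, Ldha, Eno1, Aldoa, Pgk1 and Taldo1 did not pass the test.

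Glucose enters the cell through facilitative transporters of the SLC2 family and is trapped by hexokinase as glucose 6-phosphate. Glycolysis then splits the sugar into pyruvate, which is either reduced to lactate and exported or oxidized by the pyruvate dehydrogenase complex, while the pentose phosphate pathway diverts glucose 6-phosphate to make NADPH and ribose. Most steps have several isoforms encoded by separate genes, which differ in tissue distribution and regulation. Podocytes, the epithelial cells that wrap the glomerular capillaries, use both glucose and fatty acids as fuel.

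RNA was sequenced from 3 samples of WT podocytes (cell line IMWT, WT-Col4a3+/+) and 3 samples of AS podocytes (cell line IMAS, AS - Col4a3-/-). AS stands for Alport syndrome, which is caused by loss of type IV collagen chains, Col4a3 encoding the alpha 3 chain. Both lines are labelled as coming from adult male mice 8 weeks old and were untreated. They descend from crosses with H-2Kb-tsA58 mice, which carry a temperature-sensitive large T antigen under an interferon-inducible promoter, so WT and AS podocytes alike carry that transgene. The sample records give growth at 33 °C with 20 U/mL interferon gamma and differentiation for 14 days at 37 °C, whereas the paper describes a lower interferon dose and a shorter differentiation. Each genotype is 1 cell line, so that genotype and line cannot be told apart, and whether the sets numbered 1 to 3 are separate cultures is not stated. The p-values therefore measure the spread between these samples, which may be technical.

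Total counts lay between 45417221 and 54290968 per sample. Expression is given as CPM, counts relative to the TMM-scaled library size, and AS over WT was tested with edgeR's quasi-likelihood test over 16263 genes, two-sided, with Benjamini-Hochberg adjustment. The targeted gene Col4a3 had 938, 1052 and 1272 CPM in the WT line and 62.4, 61.2 and 82.9 CPM in the AS line, so the 2 lines matched their labels. Of 15 podocyte markers, 12 were tested, 3 with a higher and 7 with a lower level in the AS line. Over all genes tested, 40.1% had an adjusted p under 0.05. The transcription factor gene Tcf21 had no count in any sample, Nphs1 stayed at or below 0.473 CPM, and Wt1 was at 15.3 to 25.8 CPM in WT and 1.44 to 3.14 CPM in AS samples. Markers of endothelium summed to 0.466 to 1.67 CPM and the macrophage genes Adgre1 and C1qa were at 0, although Csf1r of that list was at 9.23 to 11.9 CPM in WT and 3.23 to 4.24 CPM in AS samples and Cd68 at 1.42 to 2.91 CPM over all samples. Lrp2, a receptor of the proximal tubule, was at 196 to 307 CPM over the 6 samples, while the tubule genes Slc22a6, Miox and Kap were at 0. The water channel gene Aqp1 of the same list was at 106 to 126 CPM in WT and 50.9 to 79.7 CPM in AS samples, and Cubn was at 4.85 to 6.004 CPM over all samples. All 12 cell cycle genes of the list were lower in AS podocytes, and their summed CPM was 220 to 342 in WT and 177 to 188 in AS samples. Their part in the glucose metabolism results was not tested. In bulk RNA, fewer cells of a type and less RNA per cell cannot be told apart.

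Of the 40 tested glucose metabolism genes, 25 (62.5%) had an adjusted p under 0.05, AS podocytes having the higher level in 11 and the lower level in 14. The background was high, since 40.1% of all tested genes passed, 20.4% higher and 19.6% lower. The 3 AS samples lay wholly above or wholly below the 3 WT samples in 29 of the 40 genes, against 52.3% of all tested genes. Changes went both ways, and the median log2 fold change was -0.11 over the members and 0.0061 over all genes tested. The insulin-responsive transporter Slc2a4, with 23 counts in all WT and 22 in all AS samples, and the gluconeogenic phosphatase Fbp1, with 3 and 1, were too low to test. Among the 25 genes, 15 kept their direction under every alternative setting and with each sample left out, and passed the test in every refit. With chromosome medians removed, fold changes were shifted without a new test, so no call could be lost there. The exceptions are named where they occur. The number of higher genes was 6 without AS2 and 7 without AS3 or WT3. In these refits 32.4%, 30.7% and 32.6% of all genes tested were called in either direction, against 40.1% with all samples.

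**Figure D1:**
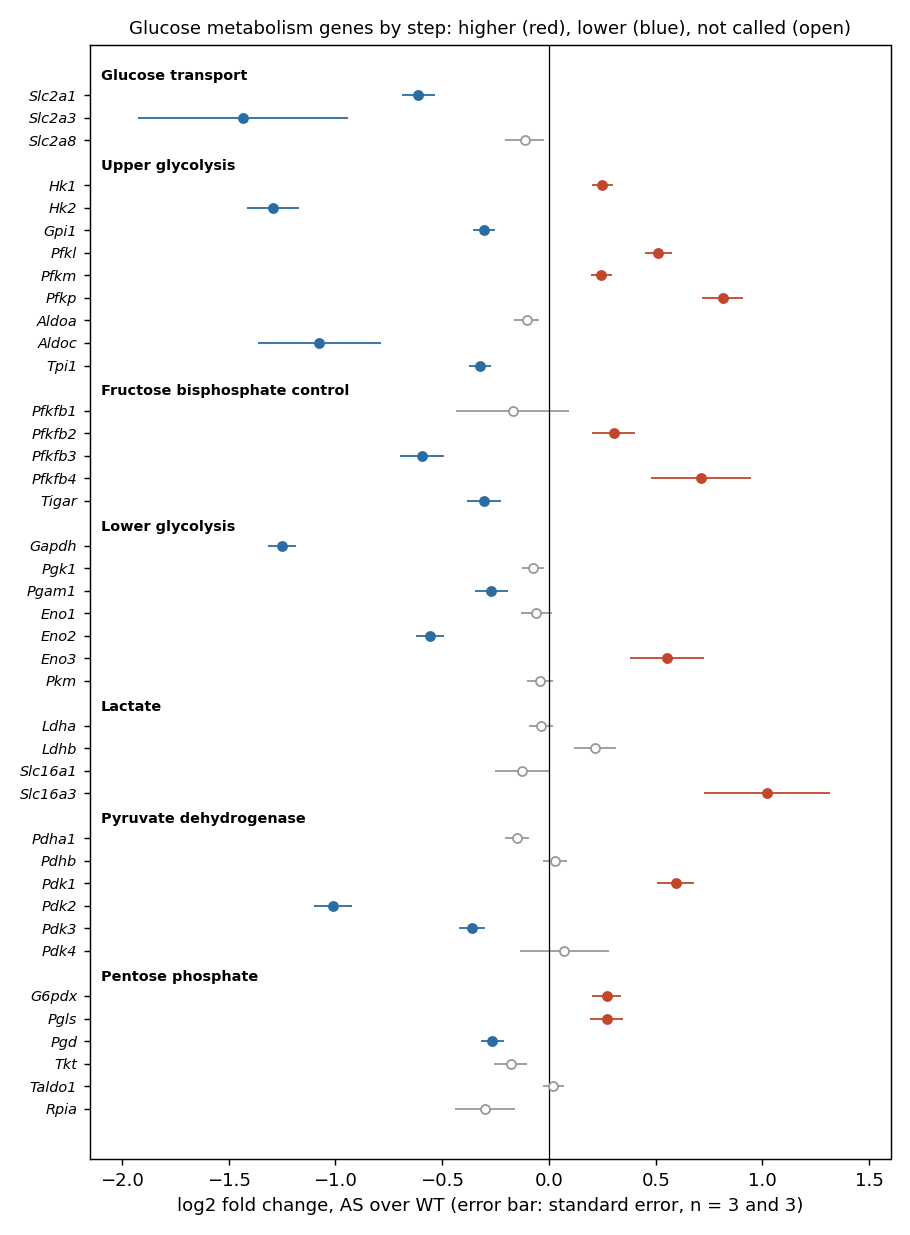
Log2 fold change, AS over WT, of the 40 tested genes by step, with the standard error (edgeR, 3 WT and 3 AS samples). Red points were called higher (11), blue points lower (14) and open points not called (15), and the largest decreases with small errors are those of Hk2 at -1.29 and Gapdh at -1.25.

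Among the glucose transporter genes, 2 of 3 tested were lower in AS podocytes and none was higher. Slc2a1 encodes GLUT1, the basal glucose transporter of most cells. It stood at 74.5, 69.3 and 68.0 CPM in the WT samples and at 50.6, 46.1 and 41.96 CPM in the AS samples. The groups did not overlap, and AS podocytes held 0.654 times the WT level (log2 fold change -0.61, standard error 0.08, edgeR adjusted p = 0.000238). Slc2a3, the high-affinity neuronal transporter GLUT3, was barely expressed, with 0.868, 0.491 and 0.303 CPM in WT and 0.178, 0.272 and 0.164 CPM in AS samples. Its difference (log2 fold change -1.43, standard error 0.49, edgeR adjusted p = 0.0424) rested on 81 WT and 31 AS counts and no longer passed without WT1, WT2, AS1, AS2 or AS3, where the adjusted p was 0.0582 to 0.196. It also did not pass in limma-voom (adjusted p = 0.0657). Slc2a8, an intracellular transporter, lay at 14.1 to 15.1 CPM in WT and 12.3 to 14.2 CPM in AS samples and did not pass the test (log2 fold change -0.11, standard error 0.09).

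In upper glycolysis 4 of 9 genes rose and 4 fell. Hexokinase catalyses the entry step, Hk1 being the constitutive form and Hk2 the form induced by insulin and hypoxia. The CPM of Hk2 was 89.8, 68.6 and 77.0 in WT and 37.7, 29.3 and 29.1 in AS samples. Every AS sample was far below every WT sample, a 2.45-fold decrease (log2 fold change -1.29, standard error 0.12, edgeR adjusted p = 4.1e-05). Hk1 went the other way, with 223, 218 and 222 CPM in WT and 269, 261 and 261 CPM in AS samples. The samples of a line agreed closely and the lines did not overlap, although the change was 1.19-fold only (log2 fold change 0.25, standard error 0.05, edgeR adjusted p = 0.00385). Hk1 lies on chromosome 10, whose expressed genes had a median log2 fold change 0.31 above that of all genes, and relative to that median Hk1 was at -0.06.

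Phosphofructokinase, the committed step of glycolysis, is a tetramer built from the products of Pfkl, Pfkm and Pfkp, named for liver, muscle and platelet. All these genes rose in AS podocytes. Pfkp changed most, from 14.5, 12.8 and 16.0 CPM in WT to 24.6, 24.3 and 27.2 CPM in AS samples (1.76-fold, log2 fold change 0.81, standard error 0.10, edgeR adjusted p = 0.00017). Pfkl was at 70.8, 71.0 and 65.3 CPM in WT and at 104, 98.7 and 93.1 CPM in AS samples (log2 fold change 0.51, standard error 0.06, edgeR adjusted p = 0.00019). Pfkm was at 84.8, 82.1 and 83.3 CPM in WT and at 100.3, 96.7 and 99.7 CPM in AS samples (log2 fold change 0.25, standard error 0.05, edgeR adjusted p = 0.00337). None of them overlapped between lines. Pfkl and Pfkm lie on chromosomes 10 and 15, whose medians were 0.31 and 0.19 above that of all genes, and relative to these medians their log2 fold changes were 0.20 and 0.06, while that of Pfkp on chromosome 13 was 0.82.

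The other enzymes of upper glycolysis went down or did not pass the test. Gpi1, the isomerase after hexokinase, was at 338 to 350.4 CPM in WT and at 275 to 285 CPM in AS samples (log2 fold change -0.30, standard error 0.05, edgeR adjusted p = 0.00162). Tpi1, which interconverts the triose phosphates, was at 182 to 189 CPM in WT and at 148 to 151 CPM in AS samples (log2 fold change -0.32, standard error 0.05, edgeR adjusted p = 0.000848). In both genes all AS samples were below all WT samples. Aldoa, the main aldolase of muscle and most tissues, lay at 431 to 448 CPM in WT and 398 to 426 CPM in AS samples, without overlap, and did not pass the test (log2 fold change -0.10, standard error 0.06, edgeR adjusted p = 0.183). Aldoc, the brain aldolase, was low, at 2.17, 1.52 and 1.41 CPM in WT and 1.04, 0.642 and 0.745 CPM in AS samples (log2 fold change -1.07, standard error 0.29, edgeR adjusted p = 0.0149). Its adjusted p was 0.0533 to 0.0543 without WT1, AS2 or AS3.

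The bifunctional PFKFB enzymes make and remove fructose 2,6-bisphosphate, the strongest activator of phosphofructokinase, and Pfkfb3 encodes the form in which the kinase most outweighs the phosphatase. Pfkfb3 was at 28.8, 34.7 and 34.0 CPM in WT and 19.3, 20.9 and 24.2 CPM in AS samples. Each AS sample was below each WT sample (0.661-fold, log2 fold change -0.60, standard error 0.10, edgeR adjusted p = 0.00157). Pfkfb2, the heart form, was at 19.4, 15.1 and 18.4 CPM in WT and 20.8, 21.4 and 23.0 CPM in AS samples (log2 fold change 0.30, standard error 0.10, edgeR adjusted p = 0.0372). The hypoxia-inducible Pfkfb4 was at 1.87, 3.46 and 2.64 CPM in WT and 3.53, 4.84 and 4.65 CPM in AS samples (log2 fold change 0.71, standard error 0.23, edgeR adjusted p = 0.0365). The lines did not overlap in either gene. The call of Pfkfb2 was lost without any sample other than WT1 (adjusted p 0.0613 to 0.131), and that of Pfkfb4 without WT1, WT3, AS2 or AS3 (0.0711 to 0.113). Tigar, a phosphatase that lowers fructose 2,6-bisphosphate, was at 26.5 to 30.4 CPM in WT and 21.8 to 24.4 CPM in AS samples (log2 fold change -0.30, standard error 0.08, edgeR adjusted p = 0.0126), with adjusted p of 0.052 without WT2 and 0.0516 without AS3. Pfkfb1, the liver form, was at 1.41 to 2.01 CPM in WT and 1.17 to 1.85 CPM in AS samples, which overlapped.

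In lower glycolysis 1 of 7 genes rose and 3 fell. Gapdh, the dehydrogenase that yields the NADH of glycolysis and a common reference gene in PCR, had the smallest adjusted p of all 40 genes. It was at 1104, 1222 and 1198 CPM in the WT samples and at 498, 506 and 478 CPM in the AS samples. The gap between the lines was many times the spread within them (log2 fold change -1.25, standard error 0.07, edgeR adjusted p = 9.9e-07). By contrast, Pgk1, the kinase of the next step, was at 171, 180 and 174 CPM in WT and 166, 168 and 162 CPM in AS samples and did not pass the test (log2 fold change -0.08, standard error 0.05, edgeR adjusted p = 0.271). The ratio of Gapdh to Pgk1 counts differed by a factor of 0.444, and that of Gapdh to Pkm by a factor of 0.433 (exact permutation test, two-sided, p = 0.1 for both, the smallest p that 3 against 3 allow). Pkm, the pyruvate kinase of most tissues, was at 573 to 627 CPM in WT and 570.4 to 588 CPM in AS samples (log2 fold change -0.04, standard error 0.06).

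Pgam1, the mutase, was at 238, 281 and 288 CPM in WT and 225, 230.2 and 214 CPM in AS samples (log2 fold change -0.27, standard error 0.08, edgeR adjusted p = 0.0207). WT1 lay close to the AS samples, and the adjusted p was 0.0691, 0.0796 and 0.0865 without WT2, WT3 and AS3. Among the enolases, Eno1, the form of most tissues, lay at 542 to 575 CPM in WT and 493 to 581 CPM in AS samples and overlapped (log2 fold change -0.06, standard error 0.07). The neuronal Eno2 was at 30.5, 31.4 and 31.9 CPM in WT and 20.8, 20.8 and 22.1 CPM in AS samples. Its lines were well apart (log2 fold change -0.56, standard error 0.06, edgeR adjusted p = 0.000144). The muscle form Eno3 was at 2.90, 2.78 and 2.38 CPM in WT and 3.31, 4.10 and 4.42 CPM in AS samples (log2 fold change 0.55, standard error 0.17, edgeR adjusted p = 0.0302). It did not pass without WT2, WT3, AS2 or AS3 (adjusted p 0.0634 to 0.111).

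**Figure D2:**
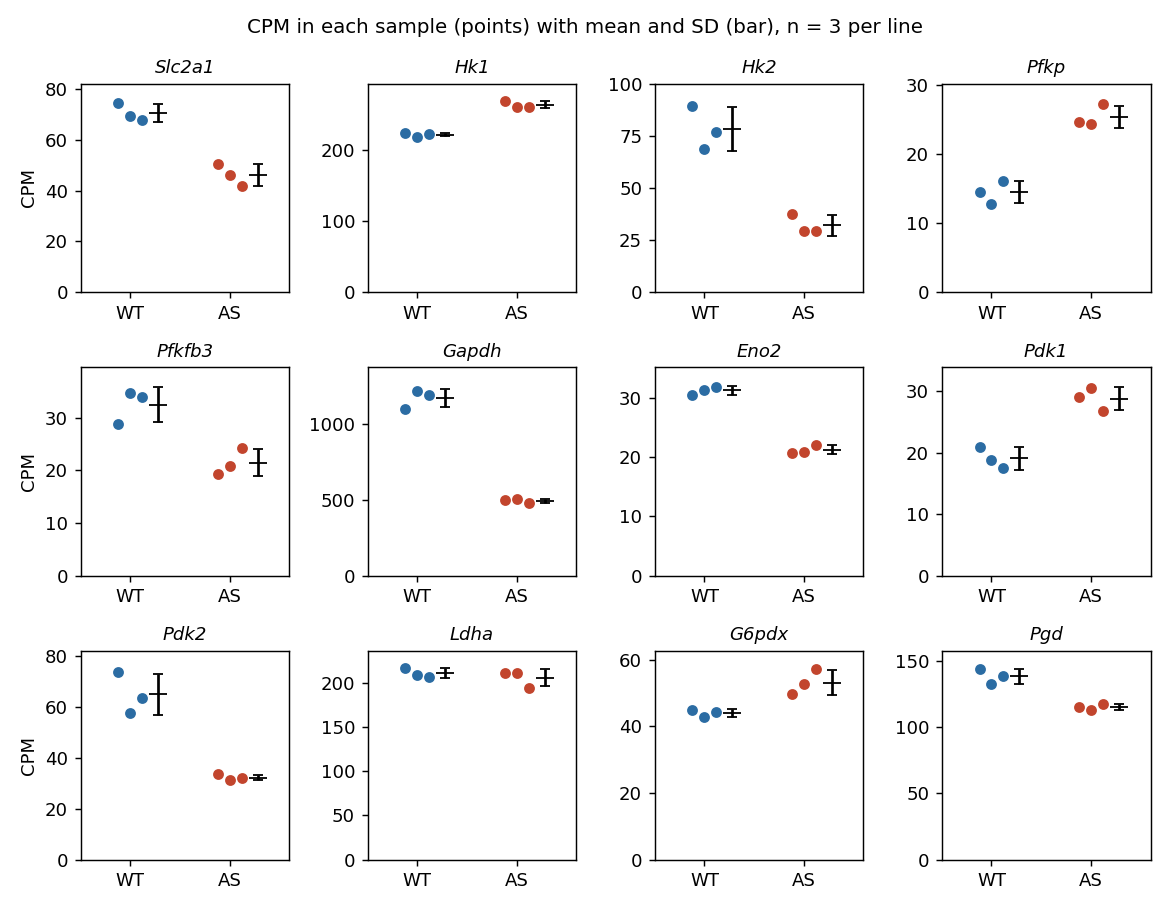
CPM of 12 genes in each of the 3 WT (blue) and 3 AS (red) samples, with the mean and SD as black bars and each axis starting at 0. Gapdh sits at 1104 to 1222 CPM in WT and 478 to 506 CPM in AS samples, Hk2 and Pdk2 are also well below WT, Pfkp and Pdk1 are above, and Ldha overlaps.

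Of the 4 genes of lactate handling, 1 rose and none fell. Lactate dehydrogenase reduces pyruvate to lactate and its A and B subunits are encoded by Ldha and Ldhb. Ldha was at 217, 209 and 206 CPM in WT and 211, 210.5 and 194 CPM in AS samples (log2 fold change -0.04, standard error 0.06, edgeR adjusted p = 0.651). Ldhb was at 193, 249 and 200.2 CPM in WT and 244, 232 and 270 CPM in AS samples (log2 fold change 0.22, standard error 0.10, edgeR adjusted p = 0.114). The lines overlapped in both, and for Ldhb only the WT2 sample was high, without which the adjusted p was 0.0118 and the log2 fold change 0.34. Slc16a1, the widely expressed monocarboxylate transporter MCT1, was at 9.23 to 12.7 CPM in WT and 9.86 to 10.9 CPM in AS samples. Slc16a3, the lactate exporter MCT4 of glycolytic cells, was low but higher in AS podocytes, at 0.513, 0.491 and 0.477 CPM in WT and 1.15, 1.07 and 0.799 CPM in AS samples (log2 fold change 1.02, standard error 0.30, edgeR adjusted p = 0.0213). That difference rested on 71 WT and 151 AS counts and had an adjusted p of 0.0596 to 0.0719 without WT2, WT3, AS1 or AS2.

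The pyruvate dehydrogenase kinases phosphorylate and switch off the complex that feeds pyruvate into the citric acid cycle. Pdk2, the widely expressed kinase, was at 73.5, 57.5 and 63.4 CPM in WT and 33.4, 31.2 and 31.9 CPM in AS samples. AS podocytes had 0.496 times the WT level without overlap (log2 fold change -1.01, standard error 0.09, edgeR adjusted p = 2.6e-05). Pdk1, which hypoxia induces in many cells, was at 21.0, 18.8 and 17.4 CPM in WT and 29.1, 30.5 and 26.8 CPM in AS samples. It was 1.51-fold higher, again without overlap (log2 fold change 0.59, standard error 0.09, edgeR adjusted p = 0.000619). Pdk3, an X-linked kinase of the family, was at 38.2 to 39.6 CPM in WT and 29.4 to 31.7 CPM in AS samples (log2 fold change -0.36, standard error 0.06, edgeR adjusted p = 0.00144). Pdk4, the kinase induced by fasting and fatty acids, was at 23.1, 45.6 and 43.4 CPM in WT and 41.2, 40.7 and 35.8 CPM in AS samples. WT1 was the low sample, and the log2 fold change of 0.07 (standard error 0.21) was -0.18 without it.

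Among the subunits of the first enzyme of the complex, Pdha1 was at 159 to 165 CPM in WT and 139 to 154 CPM in AS samples, which did not overlap, and did not pass the test (log2 fold change -0.15, standard error 0.06, edgeR adjusted p = 0.0611). Without AS1 and without WT1 its adjusted p was 0.0399 and 0.0444. Pdhb was at 57.4 to 61.6 CPM in WT and 58.5 to 61.9 CPM in AS samples (log2 fold change 0.03, standard error 0.06).

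In the pentose phosphate pathway 2 of 6 genes rose and 1 fell. G6pdx, the glucose 6-phosphate dehydrogenase that opens the pathway and makes its first NADPH, was at 45.1, 42.7 and 44.5 CPM in WT and 49.7, 52.7 and 57.2 CPM in AS samples (log2 fold change 0.27, standard error 0.07, edgeR adjusted p = 0.0102). Pgls, the lactonase of the next step, was at 35.1, 41.6 and 40.7 CPM in WT and 45.3, 49.2 and 47.1 CPM in AS samples (log2 fold change 0.27, standard error 0.08, edgeR adjusted p = 0.0192). Pgls lies on chromosome 8, whose median was 0.31 above that of all genes, and relative to that median it was at -0.04. Its adjusted p was 0.0752 without AS2 and 0.0561 without AS3. Pgd, the second NADPH-making dehydrogenase, went down, from 144, 133 and 139 CPM in WT to 115, 113 and 118 CPM in AS samples (log2 fold change -0.27, standard error 0.05, edgeR adjusted p = 0.0035). The lines did not overlap in any of these genes, G6pdx and Pgls being higher and Pgd lower. With chromosome medians removed, Pgls and Pgd were at -0.04 and -0.09 and G6pdx was at 0.33.

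The enzymes of the non-oxidative arm did not pass the test. Tkt, the transketolase, was at 278, 246 and 228 CPM in WT and 226, 216 and 222 CPM in AS samples (log2 fold change -0.18, standard error 0.08, edgeR adjusted p = 0.0867), and without WT3 its adjusted p was 0.0354. Taldo1, the transaldolase, was at 78.6 to 80.6 CPM in WT and 78.2 to 82.7 CPM in AS samples. Rpia, the ribose phosphate isomerase, was at 9.31, 8.99 and 9.12 CPM in WT and 6.33, 9.01 and 6.94 CPM in AS samples (log2 fold change -0.30, standard error 0.14, edgeR adjusted p = 0.123). AS2 was the high sample, and without it the adjusted p was 0.0227.

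Isoform use was expressed as each gene's share of the CPM per kilobase of transcript of its family. The median length of the annotated protein-coding transcripts of a gene was used first. For Hk1 that median is 0.581 kilobases and the longest transcript has 4.28, since many annotated models are partial, so shares from the longest transcript are given beside it. The lines did not overlap in 19 of 26 shares with the median length and in 21 with the longest length. In CPM, 52.3% of all tested genes did not overlap, and no such background was computed for shares. No share had p below 0.1 by the exact permutation test, two-sided, which 3 against 3 cannot pass, and the smallest adjusted p over the 26 shares was 0.137. Shares of a family sum to 100% and are not independent of each other, so the same difference is counted in several shares.

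Among hexokinases, Hk2 made up 7.73%, 6.14% and 6.72% of the per-length level in WT1, WT2 and WT3 and 2.83%, 2.29% and 2.27% in the AS samples. With the longest transcripts its mean share was 21.5% ± 2.12 in the WT line and 8.61% ± 1.04 in the AS line (SD, n = 3 each). Either way Hk1 held most of the family. The ratio of Hk1 to Hk2 counts, which needs no length, was higher in AS podocytes by a factor of 2.92 (log2 change 1.54, standard error 0.15, exact permutation test p = 0.1).

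Which phosphofructokinase leads depended on the length. Pfkl held 45.4% ± 1.83 (SD, n = 3) in WT with the median length and Pfkm 42.3% ± 0.40, whereas with the longest transcripts Pfkm led with 56.9% ± 0.615. The direction between lines did not depend on it. In AS podocytes Pfkm held 36.7% ± 0.633 with the median length and 51.4% ± 0.857 with the longest, and Pfkp held 12.4% ± 1.44 in WT and 15.9% ± 1.18 in AS with the median length and 6.84% ± 0.803 and 9.16% ± 0.672 with the longest (SD, n = 3 each). The count ratio of Pfkp to Pfkm differed by a factor of 1.49.

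Within the PFKFB family Pfkfb3 led in WT podocytes. Pfkfb3 held 56.0%, 63.5% and 60.7% in WT1, WT2 and WT3 and 43.7%, 44.4% and 45.9% in the AS samples, while Pfkfb2 held 38.3%, 28.02% and 33.2% in WT and 47.8%, 46.1% and 44.2% in AS samples. In AS podocytes the pair stood nearly level. With the longest transcripts Pfkfb2 was ahead in every AS sample, at 45.2%, 43.2% and 41.4% against 38.6%, 38.9% and 40.1% for Pfkfb3. The ratio of Pfkfb3 to Pfkfb2 counts differed by a factor of 0.532 (log2 change -0.91, standard error 0.19, exact permutation test p = 0.1).

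Of the 12 count ratios computed, that of Pdk1 to Pdk2 differed most between the lines. Pdk2 held 48.9%, 36.7% and 39.5% in WT1, WT2 and WT3 and 26.7%, 25.8% and 27.7% in the AS samples, and Pdk1 held 6.06%, 5.18% and 4.71% in WT and 10.1%, 10.95% and 10.1% in AS samples. Pdk4 held 17.0%, 32.2% and 29.9% in WT and 36.5%, 37.3% and 34.5% in AS samples, WT1 being the low one. In WT podocytes Pdk2 led by its mean of 41.7%, and in AS podocytes Pdk4 led with 36.1%. With the longest transcripts Pdk2 led in WT with 46.8%, and in AS podocytes Pdk3 at 31.6% and Pdk2 at 31.5% differed by less than their SDs of 0.855 and 0.891. The ratio of Pdk1 to Pdk2 counts was higher in AS podocytes by a factor of 3.03 (log2 change 1.601, standard error 0.10, exact permutation test p = 0.1).

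Of the remaining families, Slc2a1 kept most of the glucose transporter level, at 88.6% ± 0.381 in the WT and 85.2% ± 1.05 in the AS line (SD, n = 3 each), and Slc2a8 took 10.3% and 14.1%. With the longest transcripts Slc2a1 held 75.4% and 68.7% and Slc2a8 23.9% and 30.75%. Of the lactate transporters, Slc16a3 took 10.8% ± 1.42 in the WT and 21.0% ± 3.77 in the AS line (SD, n = 3 each), or 4.35% ± 0.612 and 9.10% ± 1.85 with the longest transcripts, and its count ratio to Slc16a1 was higher by a factor of 2.18. Aldoa held 99.9% of its family in both lines. Eno1 held 96.1% of the enolases in WT and 96.8% in AS podocytes, although the ratio of Eno2 to Eno1 differed by a factor of 0.709. Ldha and Ldhb were close to even, Ldhb holding 49.5% ± 3.75 in the WT and 53.9% ± 3.01 in the AS line (SD, n = 3 each), and the lines overlapped (exact permutation test, p = 0.3). With the longest transcripts the shares in WT and AS podocytes were 58.4% and 62.7% for Ldhb, 95.6% and 96.3% for Eno1 and 99.8% and 99.9% for Aldoa.

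**Figure D3:**
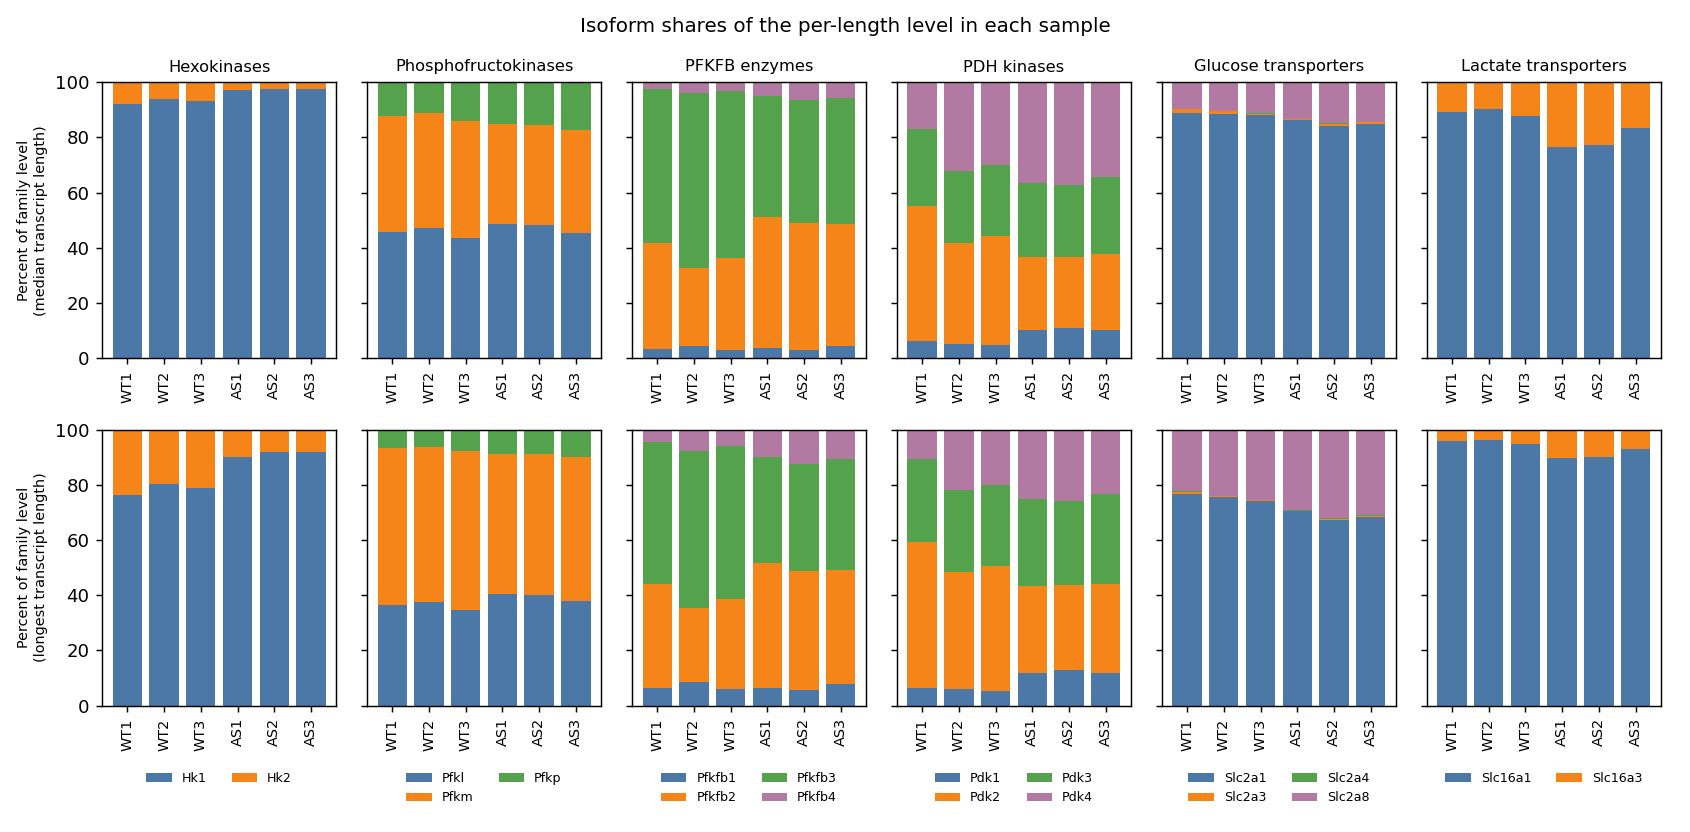
Share of each isoform in the per-length level of its family (percent) in each sample, with the median transcript length in the upper row and the longest in the lower row. Pfkfb3 and Pdk2 take smaller shares and Pfkfb2, Pdk1 and Slc16a3 larger shares in the AS samples under both lengths.

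The per-length levels were also summed over each branch. Relative to WT, the AS mean was 0.68 times as high for glucose transport, 0.944 for upper glycolysis, 0.87 for the PFKFB and Tigar group, 0.753 for lower glycolysis, 1.07 for lactate, 0.876 for pyruvate dehydrogenase and 0.97 for the pentose phosphate pathway. With the longest transcripts these ratios were 0.718, 0.924, 0.878, 0.67, 1.083, 0.867 and 0.967. The largest drops were thus in the branches of Slc2a1 and Gapdh. These sums weigh genes by level, and no test was made on them. They do not repeat the gene results, since opposite changes cancel, as in upper glycolysis with 4 genes higher and 4 lower. The lower glycolysis sum fell although Pgk1, Eno1 and Pkm did not pass the test. The pyruvate dehydrogenase sum joins subunits of the complex with the kinases that switch it off.

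Position on the chromosome went with part of these differences. Of the 9 tested members on chromosome 6, Slc2a3, Hk2, Tpi1, Tigar, Gapdh and Eno2 were lower, none was higher, and Ldhb, Pdk4 and Rpia did not pass the test. Over all chromosomes, 19.6% of tested genes were called lower and 20.4% higher. The share of all chromosome 6 genes called was not computed, so whether these members stand out on their chromosome cannot be judged. The median log2 fold change of the expressed genes of chromosome 6 was -0.21 relative to that of all genes, and that of chromosome 4, which holds Slc2a1 and Pgd, was -0.18. After these medians were taken off, Hk2 was at -1.09, Gapdh at -1.04, Slc2a1 at -0.44 and Eno2 at -0.35, while Tpi1 was at -0.12, Tigar at -0.10 and Pgd at -0.09. With all chromosome medians removed, 9 of the 25 called genes were above 0 and 16 below, against 11 and 14 before. The reason for the chromosome medians was not tested.

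**Figure D4:**
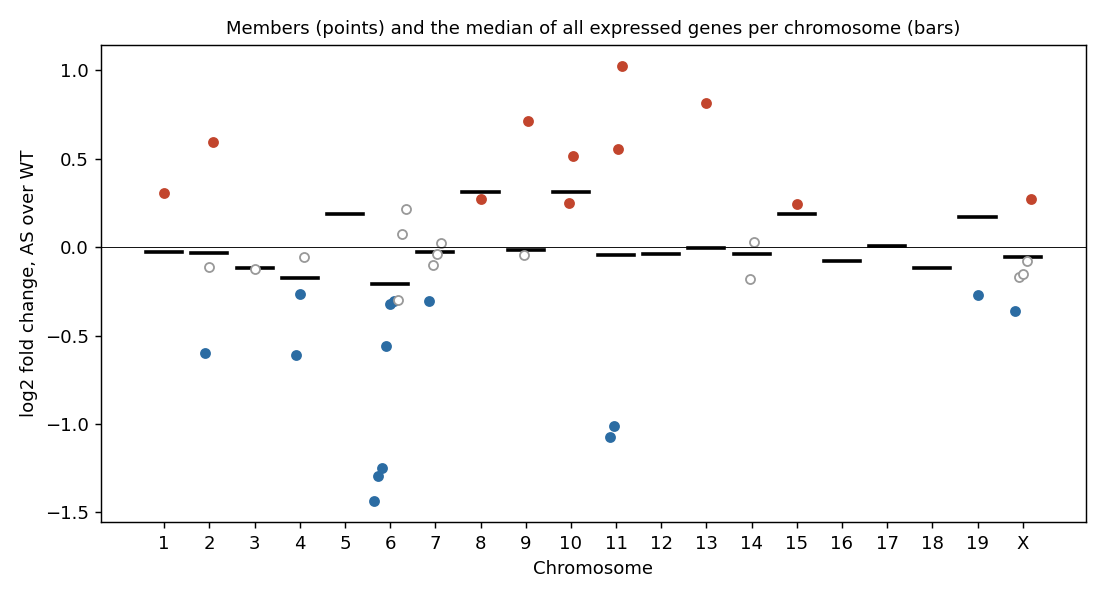
Log2 fold change, AS over WT, of the tested genes (points, red higher, blue lower, open not called) by chromosome, with the median of all expressed genes of each chromosome as a bar. Chromosome 6 holds 9 of the 40 genes, 6 of them lower and none higher, and its median lies at -0.21 relative to all genes. The share of all chromosome 6 genes called was not computed.

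Several members have near-identical copies in the genome, and reads may be divided between them. Among the Ensembl genes that matched a member over at least 300 bases at 80% identity or more, 317 matched Gapdh and 149 of these had counts. Their counts came to 0.717% of those of Gapdh in WT and to 16.8% in AS podocytes. Most came from Gm13394, a processed pseudogene on chromosome 2 that is 99.9% identical over 1000 bases, whose mean was 0.112 ± 0.054 CPM (SD, n = 3) over the WT samples and 76.9 ± 2.08 CPM (SD, n = 3) over the AS samples. Every AS sample of Gm13394 had at least 3565 counts and no WT sample had more than 8. With all copies added, the log2 fold change of Gapdh was -1.04 in place of -1.25. Eno1b, 99.5% identical to Eno1, was at 98.6 to 106 CPM in WT and 38.0 to 47.2 CPM in AS samples, and with copies Eno1 was at -0.19 (edgeR adjusted p = 0.0715). Gm5514, a copy of Ldhb, had means of 0.599 ± 0.061 and 12.6 ± 0.534 CPM (SD, n = 3 each) in the WT and AS lines, and with it Ldhb passed the test (log2 fold change 0.28, edgeR adjusted p = 0.046). How reads that match a member and its copy equally well were counted is not known. The values of Gapdh, Eno1 and Ldhb are therefore uncertain, and the shifts given here do not bound that uncertainty.

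The promoters of 5 called genes, picked after their values were seen, are shown for the letters of the hypoxia response element, because many glycolytic genes are textbook targets of the hypoxia-inducible factors. RefSeq promoters (GRCm38.p6, 250 bases before to 50 after each start) were matched for 40 of the 42 genes, not for Slc2a3 and Slc2a4. The submitters name mm39 as the build of the files, so these coordinates belong to the RefSeq table only. The 250 bases before the start are printed 5′ to 3′ on the strand of the gene, with ACGTG and GCGTG on either strand (also read as CACGT and CACGC) in capitals. Gapdh lies at chr6:125165774-125166023 (minus strand), Hk2 at chr6:82774455-82774704 (minus), Slc2a1 at chr4:119108495-119108744 (plus), Pfkp at chr13:6648772-6649021 (minus) and Pdk1 at chr2:71872974-71873223 (plus).
Gapdh: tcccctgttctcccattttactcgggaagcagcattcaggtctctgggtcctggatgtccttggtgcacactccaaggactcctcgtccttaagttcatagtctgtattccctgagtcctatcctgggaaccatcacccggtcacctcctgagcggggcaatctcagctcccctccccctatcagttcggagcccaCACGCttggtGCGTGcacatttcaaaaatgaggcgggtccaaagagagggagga
Hk2: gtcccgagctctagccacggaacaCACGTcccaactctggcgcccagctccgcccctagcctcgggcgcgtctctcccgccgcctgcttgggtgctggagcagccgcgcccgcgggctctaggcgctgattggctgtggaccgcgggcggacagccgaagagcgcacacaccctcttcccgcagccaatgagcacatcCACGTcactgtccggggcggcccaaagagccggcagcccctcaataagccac
Slc2a1: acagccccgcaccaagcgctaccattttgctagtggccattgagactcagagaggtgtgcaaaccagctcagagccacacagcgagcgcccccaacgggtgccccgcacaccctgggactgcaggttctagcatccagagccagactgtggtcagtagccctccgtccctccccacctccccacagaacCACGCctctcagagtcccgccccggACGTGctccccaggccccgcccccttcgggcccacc
Pfkp: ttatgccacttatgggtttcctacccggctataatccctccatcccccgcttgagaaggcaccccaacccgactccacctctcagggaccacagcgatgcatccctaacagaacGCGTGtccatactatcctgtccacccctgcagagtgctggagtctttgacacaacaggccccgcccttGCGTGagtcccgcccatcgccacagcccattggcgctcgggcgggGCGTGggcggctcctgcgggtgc
Pdk1: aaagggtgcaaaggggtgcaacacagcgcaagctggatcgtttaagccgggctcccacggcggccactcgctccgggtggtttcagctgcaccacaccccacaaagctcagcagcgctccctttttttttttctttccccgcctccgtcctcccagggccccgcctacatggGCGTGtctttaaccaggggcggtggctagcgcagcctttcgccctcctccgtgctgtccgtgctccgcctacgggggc

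Hk2 held ACGTG in 2 places, Gapdh held GCGTG in 2, Pfkp in 3 and Pdk1 in 1, and Slc2a1 had each of the motifs in 1 place. Another RefSeq promoter of Pdk1 (chr2:71874654-71874903, plus), not printed, held neither motif in the 250 bases before its start. The genes printed include decreases (Gapdh, Hk2, Slc2a1) and increases (Pfkp, Pdk1), and both kinds held the letters. Over the whole 300 bases, 75.0% of the 60 promoters of these genes held ACGTG or GCGTG, against 43.8% of all 32851 promoters in the table. By gene, the letters were found in 35 of the 40 matched genes. They were in 11 of the 11 genes called higher and in 9 of the 13 matched genes called lower. The share by gene over all genes of the table was not computed, and a gene with several promoters has more places to hold the letters. ACGTG was in 38.3% of member promoters and 19.6% of all, GCGTG in 58.3% and 32.4%, and CACGTG, an E-box that contains ACGTG, in 10.0% and 7.15%. A match describes the letters in this window and not the binding of a factor.

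The other genes of the pathway and its regulators were taken as 7 lists of 97 genes in all. Of these, 79 were tested, 17 were higher and 21 lower (48.1% called, against 40.1% of all genes tested). By list, the share called ran from 33.3% (regulators) to 66.7% (hypoxia targets). Among the regulators, 4 of 15 tested rose and 1 fell. Epas1, which encodes HIF-2 alpha, was at 21.6, 33.2 and 28.9 CPM in WT and 6.59, 5.91 and 5.996 CPM in AS samples (log2 fold change -2.18, standard error 0.15, edgeR adjusted p = 5.9e-06). Hif1a did not pass the test (log2 fold change 0.14, edgeR adjusted p = 0.189). Egln1, the prolyl hydroxylase that marks the hypoxia-inducible factors for degradation, was at 77.8 to 90.9 CPM in WT and 104 to 118 CPM in AS samples (log2 fold change 0.40, standard error 0.07, edgeR adjusted p = 0.00185). Myc, a transcription factor that drives many glycolytic genes, was at 27.0 to 27.2 CPM in WT and at 42.6, 41.96 and 31.4 CPM in AS samples (log2 fold change 0.51, standard error 0.11, edgeR adjusted p = 0.00491).

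Hypoxia-inducible targets outside glycolysis were split, with 6 of 15 tested genes higher and 4 lower. Adm, the vasodilator adrenomedullin, was at 3.65, 7.35 and 5.38 CPM in WT and 18.1, 22.0 and 17.4 CPM in AS samples (log2 fold change 1.81, standard error 0.22, edgeR adjusted p = 0.000176). Ddit4, an inhibitor of mTORC1, was at 64.6 to 70.5 CPM in WT and 100.4 to 115 CPM in AS samples (log2 fold change 0.69, standard error 0.07). Plod2, a collagen lysyl hydroxylase, was at 700 to 813 CPM in WT and 515 to 526 CPM in AS samples (log2 fold change -0.54, standard error 0.07).

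Among the other genes of pyruvate and lactate handling, 4 of 12 tested rose and 2 fell. Slc16a7, the high-affinity monocarboxylate transporter MCT2, was at 10.7, 8.29 and 8.93 CPM in WT and 0.577, 0.603 and 0.40 CPM in AS samples. This was a 17.7-fold decrease (log2 fold change -4.15, standard error 0.20, edgeR adjusted p = 6.0e-07), which rested on 1342 WT and 79 AS counts. Once Slc16a7 was added to the lactate transporters, a choice made after its counts were seen, the share of Slc16a1 was 35.6 percentage points higher in AS than in WT podocytes in place of -10.2 points. Pdp1, the phosphatase that switches pyruvate dehydrogenase on, was at 16.5 to 19.6 CPM in WT and 27.5 to 29.5 CPM in AS samples (log2 fold change 0.64, standard error 0.08, edgeR adjusted p = 0.000296). Pdpr, its regulatory subunit, lies on chromosome 8 and was at 0.28 before and -0.03 after the chromosome median was removed.

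Of 7 other tested pentose phosphate genes 3 fell and none rose. H6pd, which carries out the opening dehydrogenase step inside the endoplasmic reticulum, was at 343, 289 and 330 CPM in WT and 159, 144 and 154 CPM in AS samples (log2 fold change -1.076, standard error 0.08, edgeR adjusted p = 6.6e-06). With G6pdx moving up, the ratio of H6pd to G6pdx counts differed by a factor of 0.395 (exact permutation test p = 0.1). Prps1 and Prps2, which turn ribose 5-phosphate into the precursor of nucleotides, had log2 fold changes of -0.40 and -0.17, and that of Prps2 was lost without WT2, WT3, AS2 or AS3 (adjusted p 0.0728 to 0.0917), with library size alone (0.0587) and with no filter on low counts (0.0831).

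The glycogen genes called were all lower, 6 of 10 tested, and the 4 not called had log2 fold changes of -0.083 to 0.79. Not all of the 6 calls held with 1 sample left out, where the highest edgeR adjusted p among them was 0.113. Ppp1r3b, which brings protein phosphatase to glycogen, was at 14.0, 16.2 and 14.4 CPM in WT and 8.15, 7.74 and 6.47 CPM in AS samples (log2 fold change -0.997, standard error 0.12, edgeR adjusted p = 0.000173). Gys1, the glycogen synthase of muscle and most tissues, was at 43.2 to 46.5 CPM in WT and 32.9 to 36.3 CPM in AS samples, and Gyg, glycogenin, at 49.7 to 59.4 and 41.4 to 45.1 CPM (log2 fold changes -0.37 and -0.33). Among other glycolytic and gluconeogenic genes, 1 of 11 rose, the pyruvate carboxylase gene Pcx (0.39, standard error 0.09), and 3 fell, including Bpgm of the bisphosphoglycerate shunt (-0.48, standard error 0.10) and Eno1b. Among other transporters, 2 of 9 rose and 2 fell. Slc2a13, a myo-inositol transporter, was at 0.296, 0.256 and 0.65 CPM in WT and 2.95, 2.96 and 2.42 CPM in AS samples (log2 fold change 2.79, standard error 0.34, edgeR adjusted p = 0.000183), and Slc2a9, a urate transporter, was at 7.95, 12.6 and 10.6 CPM in WT and 22.4, 19.8 and 20.4 CPM in AS samples (log2 fold change 1.01, standard error 0.15). Slc2a2, the liver transporter GLUT2, was at 1.50 to 1.99 CPM in WT and 0.506 to 0.745 CPM in AS samples (log2 fold change -1.45, standard error 0.27).

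Several of these genes lie on chromosomes whose median differs from that of all genes. With that median removed, the log2 fold change was 0.096 for Egln1, 0.38 for Ddit4, 0.32 for Myc, 0.22 for Pcx, -0.27 for Bpgm and -0.22 for Gyg.

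**Figure D5:**
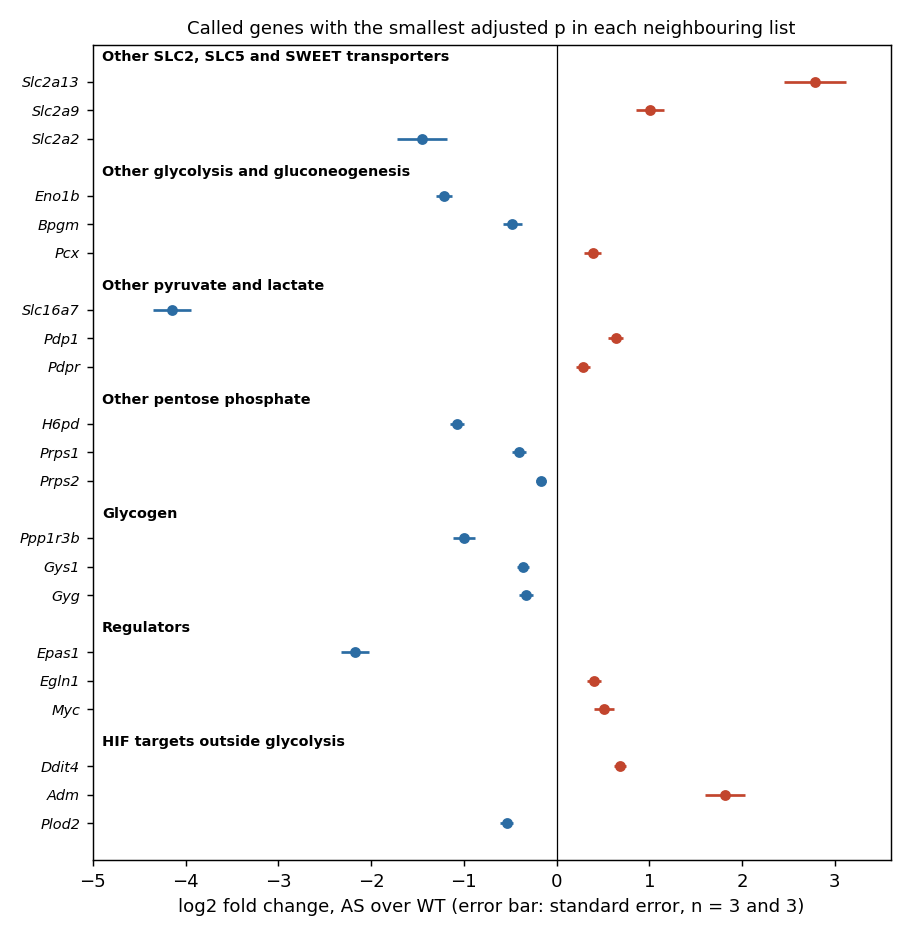
Log2 fold change, AS over WT, with its standard error for at most 3 called genes of each of the 7 neighbouring lists, those with the smallest adjusted p (3 WT and 3 AS samples, red higher, blue lower). Slc16a7 at -4.15 lies lowest and Slc2a13 at 2.79 highest, and the glycogen and pentose phosphate genes shown are all lower.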

How the data were processed

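The RNA-seq data comprised 3 samples of the WT and 3 of the AS podocyte line. Raw counts, as the authors deposited them, are the whole numbers of reads assigned to every gene in a sample and were not normalized. The submitters' processing notes name FastQC, Trim Galore, STAR, edgeR and the build mm39, and the study's methods name limma with voom. The counting tool was not given in the sources used here, nor were its strand setting and the annotation release. Libraries were made with 15 cycles of PCR. No batch is labelled.

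Identifiers were matched to GENCODE M21 without their version (51880 of 57132, 35 with the same version), for symbols, chromosomes and transcript lengths only. Identifiers left without symbols took up 0.363% of all counts. Aldoa has 2 identifiers, of which the one with most counts was used. In R 4.3.3, genes passing filterByExpr (a minimum count of 10 and a total of 15) were scaled by TMM and tested with the quasi-likelihood test of edgeR 4.0.16, genotype being the only term, with Benjamini-Hochberg adjustment over all genes tested. Standard errors are approximate: each log2 fold change over the root of its F. Copies were found with BLAST 2.17.0 (at least 300 bases, 80% identity and 50% of the length of the copy). Chromosome medians used genes with a mean log2 CPM of at least 2. Over a whole group, 3 counts equal 0.0209 CPM (WT) or 0.0198 CPM (AS), and limits cover counting error only.

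The members and lists were chosen with earlier results of these data known. All 42 members were named, and at most 3 called genes with the smallest adjusted p from each other list. The lists are, for the pathway, other transporters, other glycolysis and gluconeogenesis, other pyruvate and lactate genes, other pentose phosphate genes, glycogen, regulators and hypoxia targets, and, for cells, podocyte, mesangial, endothelial, proximal tubule, parietal, macrophage and cell cycle genes. Alternatives were other scalings, DESeq2 1.42.0, limma-voom (limma 3.58.1), other filters, a replicate block, chromosome medians removed, copies added, other transcript lengths and each sample left out. Samples of 1 line differed by a chi-square of 9.73 to 49.5 per degree of freedom over genes, so none was treated as a repeat deposit of another, which does not show that they are separate cultures.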

Additional observations from a re-analysis of the deposited data

How the results depend on the processing

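Over the 40 tested members, 598 fold changes were recomputed under the alternatives. Of these, 548 stayed on the same side of the threshold with the same sign. A further 34 kept the direction and lost the call, 9 gained a call and 7 changed sign. The values with chromosome medians removed kept the p-value of the main fit, so only their sign could change. Of the other 22 genes named or used as checks, 321 of 329 values kept both. Without 1 sample at a time, 17 to 23 members were called, 6 to 10 higher and 10 to 14 lower, the fewest higher ones being 6 without AS2 and 7 without AS3 or WT3. Of all genes tested in the same refits, 30.7% to 40.4% were called, against 40.1% with all samples, so calls were also lost outside the members. The member count was 24 in limma-voom and when a mean CPM of 1 was required, 26 with no filter and with copies added, and 25 with DESeq2, other scalings and a replicate block. The share of all genes called was 46.1% with a mean CPM of 1 required, 24.2% with no filter and 39.9% to 43.4% in the others.

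With chromosome medians removed, the log2 fold change of Hk1 was -0.058, that of Pgls -0.038, of Eno1 0.117 and of Pdpr -0.026. With 1 sample left out, Pfkfb1 ranged from -0.404 to 0.016 (the highest without WT2), Eno1 from -0.117 to 0.0063 and Ldha from -0.066 to 0.0036 (the highest without AS3), and Pdk4 from -0.183 (without WT1) to 0.24. The AS minus WT difference in the share of Pfkfb1 was -0.38 to 0.38 percentage points and that of Pdk3 -0.22 to 0.95 points with 1 sample left out, and that of Pdk3 -1.06 points without length. That of Slc16a1 was 35.6 points with Slc16a7 in its family. The cause was not tested beyond these values.

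Deviations from the line means correlated at 0.284, 0.16 and 0.0801 between samples with the same set number. Between samples with different numbers the correlations were -0.231 to 0.139. WT1 and WT2 correlated best with the AS sample of their own number, and WT3 with AS2. The main fit did not pair the samples, and whether the set numbers mark shared handling was not stated. With a replicate block, 25 members were called and 7066 genes in all, against 6517 without it, Slc2a3 no longer passed (adjusted p = 0.0534) and Tkt did (adjusted p = 0.0477). Few counts limit what can be said of Slc2a3, Slc2a4, Fbp1, Aldoc, Slc16a3 and Pfkfb1.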

Other observations

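Among the marker lists, mesangial genes were lower in 2 of 6 tested and higher in none, proximal tubule genes lower in 1 of 4 and higher in none, parietal epithelial genes higher in 1 and lower in 2 of 6, macrophage genes lower in 1 of 3 and endothelial genes lower in 1 of 2. Of all genes tested, 40.1% were called. The mesangial list summed to 5766 to 7912 CPM in WT and 6420 to 7546 CPM in AS samples, of which Acta2 made up 5503 to 7648 and 6296 to 7421 CPM. The parietal list summed to 1544 to 1869 CPM in WT and 1623 to 1789 CPM in AS samples. The macrophage list summed to 11.2 to 15.0 CPM in WT and 5.11 to 7.02 CPM in AS samples.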
